A study of Homo sapiens with 8 samples.

Results

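Mitochondria keep their shape by fusing and dividing, and the genes that do this work were followed here across FT293 lines that express different RNA-binding proteins. The outer membranes are fused by the mitofusins MFN1 and MFN2 and the inner membranes by OPA1, a GTPase that the inner membrane proteases OMA1 and YME1L1 cut into shorter forms. Division needs DNM1L, the dynamin-related GTPase also called DRP1, which is drawn from the cytosol to the outer membrane by receptors such as MFF, with FIS1 as another outer membrane protein of this pathway. New mitochondria depend on TFAM, which packages and transcribes mitochondrial DNA, and on PPARGC1A, the transcriptional coactivator PGC-1alpha. TIA1, TIAR and HuR bind uridine-rich stretches of RNA and act on the splicing, stability and translation of their targets.

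Every non-control probe named for 1 of these 10 genes was taken, which gave 18 of the 50599 probes and 10 of the 34423 gene names of the array. Each probe is described apart. FT293 cells are HEK293 human embryonic kidney cells with a single recombination site, into which a tetracycline-inducible transgene had been placed. The 4 lines expressed GFP alone, GFP-HuR, GFP-TIA1 or GFP-TIAR. RNA was taken on day 3 of tetracycline, so the tag, the integration site and the inducer were common to all lines. Each protein was represented by 1 stable isogenic line. RNA of each line was hybridized to 2 one-colour Agilent arrays described as independent biological replicates, and p-values measure the spread between these 2 only. Signals are given on the log2 scale relative to the 75th percentile of the array, so that a value of 0 is the signal that 75% of the spots do not exceed and a difference of 1 is a fold change of 2.

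The first GFP array stood apart from the other 7. On it 86% of probes were well above background, against 53.2% to 58.5% on the others, and its mean local background was 90 intensity units against 37.4 to 43.5. Comparisons with the GFP line are therefore given with and without it. The GFP arrays differed from each other by a median of 0.31 over the 18 probes, with GFP 2 higher for 16 of them, while the corresponding median absolute gap was 0.11 in the HuR line, 0.12 in the TIA1 line and 0.14 in the TIAR line. All 18 probes were well above background on all 8 arrays and none was saturated. Of 10 HEK293 markers 9 were well above background on all arrays, NEFM being the exception, as were 6 of 16 markers of blood, endothelium, liver, muscle and mature kidney. The part of the latter in the results was not tested. TIAL1, the gene of TIAR, was at a mean of 4.95 in the TIAR line and between 1.70 and 2.51 in the other lines (probe A_23_P161488). A second TIAL1 probe, A_33_P3293869, was dim, at -3.96 in the TIAR line, -4.15 in TIA1, -3.56 in GFP and -3.58 in HuR. Both TIA1 probes were lower in the TIA1 line, at -0.95 and -1.08, than in the GFP and HuR lines, and were at -1.54 and -1.11 in the TIAR line. The ELAVL1 probe for HuR was at 0.39 in the HuR line and 1.02 in the GFP line. Whether these probes lie within the transgenes is not given in the sources used here.

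**Figure D1:**
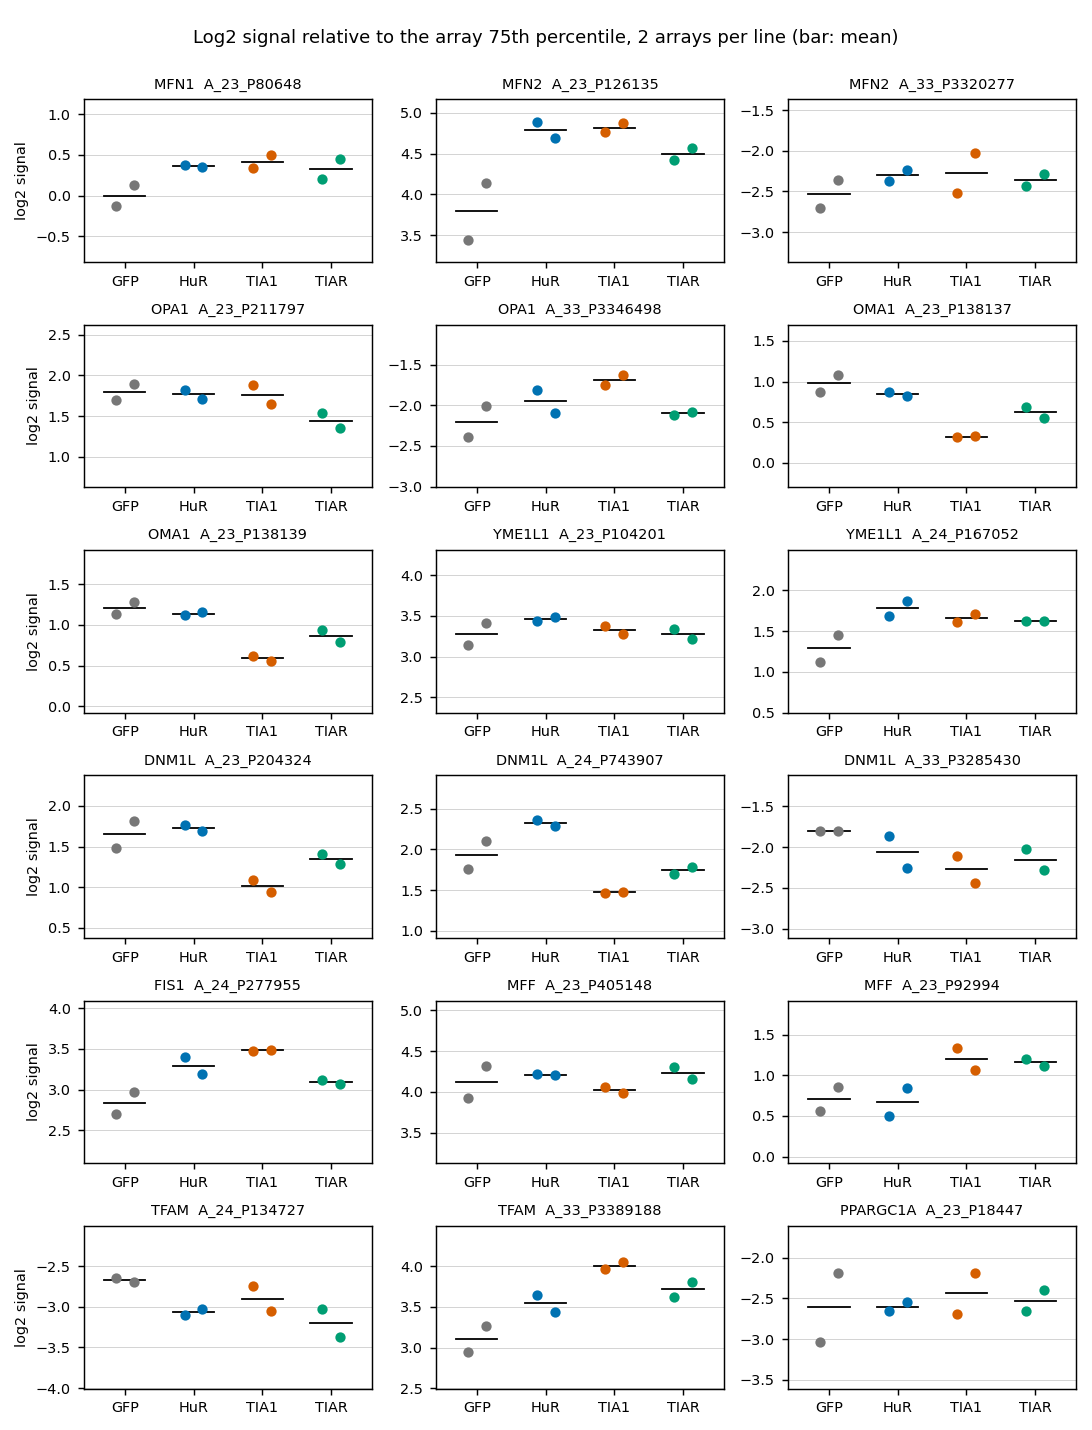
Log2 signal relative to the array's 75th percentile (vertical axis) for the 18 probes of the 10 genes, with the lines along the horizontal axis, 1 point per array and a bar at the mean of the 2 arrays. The DNM1L probes A_23_P204324 and A_24_P743907 and both OMA1 probes are lowest in the TIA1 line, and MFN2 A_23_P126135 is lowest in the GFP line.

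In TIA1- versus HuR-expressing cells, transcripts of the division GTPase DNM1L and of the protease OMA1 were less abundant, and those of TFAM more abundant, by less than 2-fold in each case. DNM1L was lower by 0.85 ± 0.092 (SE, n = 2 arrays per line) at one probe and OMA1 by 0.55 ± 0.092, while TFAM was higher by 0.46 ± 0.12 at one of its probes. Of the 18 probes, 0 reached the 2-fold change with an adjusted p under 0.05 at which RNAs were called, compared with 13.4% of all 28743 probes tested with limma. At the adjusted p alone 4 were lower and 1 was higher, compared with 17% and 24.4% of all probes, and 6 had an unadjusted p under 0.05, which 52.4% of all probes had. The arrays of the lines did not overlap for 10 of the 18, compared with 75.7% of all probes. The median absolute difference was 0.19 over the members and 0.40 over all probes tested. With either HuR array left out, a single array stands for the HuR line. The 5 probes then no longer passed, and far fewer of all probes did, so the loss was not confined to the members. When the filter on dim probes was dropped, DNM1L A_24_P743907 alone of the 5 passed (adjusted p = 0.045 with limma), beside 4633 of all 50599 probes. As RNA was taken from whole cultures, fewer cells with a transcript and less of it per cell cannot be told apart.

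In TIAR- versus HuR-expressing cells only 1 DNM1L probe passed, at -0.58 ± 0.098. At 2-fold 0 of the 18 probes were called by limma, beside 10.1% of all 29099 probes tested, and 4 had an unadjusted p under 0.05, which 45.4% of all probes had. At the adjusted p alone 1 probe was lower and 0 were higher, beside 12.2% and 18.3% of all probes. The arrays did not overlap for 10 of the 18 probes, 9 of them lower in the TIAR line, compared with 71.5% of all probes. The median difference was -0.15 over the members and 0.06 over all probes. Both comparisons use the same HuR arrays, and the 95% interval of the difference lay within 2-fold either way for 16 of the 18 probes in the TIA1 line and for 18 in the TIAR line.

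**Figure D2:**
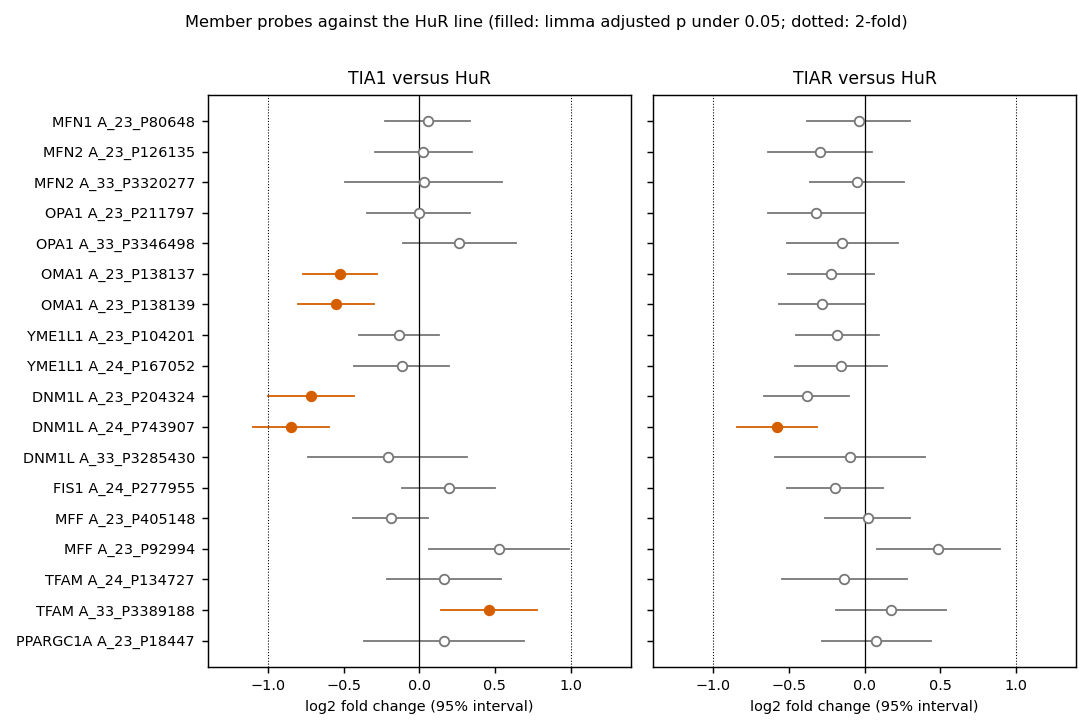
Log2 fold change of the 18 probes in TIA1 versus HuR (left) and TIAR versus HuR (right) on the horizontal axis, with 95% intervals from limma. Filled points have an adjusted p under 0.05, which holds for 5 probes on the left and 1 on the right, and dotted lines mark a 2-fold change, which no point reaches.

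Over the 4 lines, limma's F test passed 1 of the 18 probes, DNM1L A_24_P743907, at an adjusted p of 0.047, compared with 20.3% of all 29580 probes tested. With the GFP line left out it passed 4, both OMA1 probes and 2 of DNM1L, at adjusted p-values of 0.0052 to 0.025, compared with 41.3% of all probes.

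DNM1L showed the largest difference from HuR among the members in each of the TIA lines. Its probes lie on the plus strand of chromosome 12, in the array design's hg19 coordinates, at chr12:32896876-32896935 (A_23_P204324), chr12:32898016-32898075 (A_24_P743907) and chr12:32892958-32893017 (A_33_P3285430). The array lists the last of these under an Ensembl transcript and other accessions but no RefSeq transcript, and the other probes under RefSeq transcripts of DNM1L. Stretches of 30 bases of each are shown because the first 2 passed in the TIA1 line under more settings than the last, with runs of 5 or more T in capitals, the DNA letter for the uridine runs that TIA proteins and HuR bind.
DNM1L A_24_P743907: cccacatcagtctgatacgatatggtacta
DNM1L A_23_P204324: tgatgtgTTTTTaagaaagctgaatgcaca
DNM1L A_33_P3285430: ttttggaacatgTTTTTTcaggttgcatct
Such a run was present in 4 of the 18 member probes and in 10.6% of all probes on the array, and its presence in a probe says nothing about binding.

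The DNM1L probe A_24_P743907 read 2.36 and 2.29 on the HuR arrays, 1.46 and 1.48 on the TIA1 arrays, 1.70 and 1.78 on the TIAR arrays and 1.75 and 2.10 on the GFP arrays. Both arrays of each TIA line lay below both HuR arrays, the TIA1 arrays were the lowest of the 8, and the TIAR arrays overlapped with those of the GFP line. TIA1 differed from HuR by -0.85 (95% interval -1.10 to -0.60, adjusted p = 0.0058 with limma) and TIAR from HuR by -0.58 (-0.85 to -0.31, adjusted p = 0.020). The TIAR difference did not pass with either HuR array left out, at adjusted p-values of 0.16 without HuR 1 and 0.14 without HuR 2. Nor did it pass with the replicate number as a block (0.056), with all 8 arrays in one fit (0.068), without the filter on dim probes (0.089) or on the authors' values (0.055).

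The probe A_23_P204324 gave 1.77 and 1.69 in the HuR line, 1.09 and 0.94 in the TIA1 line, 1.41 and 1.29 in the TIAR line and 1.48 and 1.81 in the GFP line. The order from the lowest was TIA1, TIAR, GFP and HuR, and the last 2 lines overlapped. TIA1 was lower than HuR by 0.72 (SE 0.11, adjusted p = 0.011), and for TIAR the difference of -0.38 had an adjusted p of 0.058. The third probe, A_33_P3285430, was dim, ranging from -2.44 to -1.80, and its 95% interval for TIA1 versus HuR ran from -0.74 to 0.32, which includes the difference at A_23_P204324 but not that at A_24_P743907. On the authors' values it was at -0.34 in TIA1 versus HuR and passed (adjusted p = 0.039). The difference between this probe and A_24_P743907 within an array had means of -4.38 in the HuR line and -3.74 in the TIA1 line, and did not pass the F test over the lines (adjusted p = 0.32).

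On the processed signals the other genes of division did not pass against HuR. FIS1 has a single probe, whose ends lie at chr7:100883486-100884127 on the minus strand, further apart than its 60 bases and hence across a splice junction. It read 3.40 and 3.19 in the HuR line, 3.48 and 3.49 in the TIA1 line, 3.11 and 3.07 in the TIAR line and 2.70 and 2.97 in the GFP line. The GFP arrays were the lowest, and TIA1 and TIAR lay on either side of HuR, at 0.19 and -0.20 from it (adjusted p = 0.24 and 0.26). On the authors' values TIA1 was at 0.36 from HuR and passed (adjusted p = 0.047). TIAR was at -0.39 from TIA1 (unadjusted p = 0.018, adjusted p = 0.13).

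MFF, the outer membrane receptor that recruits DNM1L, was measured by a bright probe (A_23_P405148, chr2:228221775-228221834) between 3.92 and 4.32 and by a second (A_23_P92994, chr2:228222249-228222308). The second read 0.50 and 0.84 in the HuR line, 1.33 and 1.06 in the TIA1 line, 1.20 and 1.12 in the TIAR line and 0.56 and 0.85 in the GFP line. All arrays of both TIA lines lay above all arrays of HuR and GFP. The differences from HuR of 0.53 for TIA1 and 0.49 for TIAR had adjusted p-values of 0.071 and 0.075, and on the authors' own normalized values both passed, at 0.035 and 0.025. With normexp background correction both passed too, at 0.55 and 0.54 (adjusted p = 0.031 for each with limma). At the bright probe TIA1 was at -0.19 from HuR and TIAR at 0.02. The distance between the MFF probes within an array, -2.83 in the TIA1 line and -3.54 in the HuR line, had an unadjusted p of 0.033 and an adjusted p of 0.18 over the 4 lines.

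OMA1, the stress-activated protease that cuts OPA1, had both its probes past the test in the TIA1 line. Its probes lie on the minus strand of chromosome 1, 1 of them at chr1:58946767-58946826 (A_23_P138137) and the other at chr1:58971732-58971791 (A_23_P138139). They are shown whole because they lie far apart in the gene and gave similar differences, and neither holds a run of T that would be in capitals.
OMA1 A_23_P138137: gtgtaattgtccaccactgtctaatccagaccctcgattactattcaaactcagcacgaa
OMA1 A_23_P138139: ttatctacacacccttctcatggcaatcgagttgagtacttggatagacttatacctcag
The first read 0.87 and 0.82 in the HuR line, 0.32 and 0.33 in the TIA1 line, 0.69 and 0.56 in the TIAR line and 0.87 and 1.08 in the GFP line. The second read 1.12 and 1.15 in the HuR line, 0.62 and 0.56 in the TIA1 line, 0.93 and 0.78 in the TIAR line and 1.13 and 1.28 in the GFP line. At both probes the order from the lowest was TIA1, TIAR, HuR and GFP, the TIA1 arrays lay below all others, and the HuR and GFP arrays overlapped or nearly touched.

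TIA1 was lower than HuR by 0.52 at the first OMA1 probe (SE 0.091, adjusted p = 0.016 with limma) and by 0.55 at the second (SE 0.092, adjusted p = 0.014). The TIAR line lay between, at -0.22 and -0.28 from HuR (adjusted p = 0.17 and 0.11). TIAR was at 0.30 and 0.27 from TIA1, which did not pass either (adjusted p = 0.22 and 0.27). The within-array distance of the OMA1 probes ranged from -0.34 to -0.20 over the 8 arrays, with an adjusted p of 0.98 for a difference between lines. The OMA1 and DNM1L differences for TIA1 versus HuR did not pass with either HuR array left out: without HuR 1 the adjusted p was 0.13 and 0.11 for OMA1 and 0.098 and 0.068 for DNM1L, and without HuR 2 it was 0.12 for both OMA1 probes and 0.085 and 0.061 for DNM1L. A single array then stands for the HuR line and is taken to vary like the TIA1 arrays, and the differences themselves stayed between -0.88 and -0.50.

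YME1L1, the other protease that cuts OPA1, was measured by 10 spots of A_23_P104201 (chr10:27400749-27400808) between 3.14 and 3.48 and by A_24_P167052 (chr10:27399653-27399712) between 1.12 and 1.87. TIA1 was at -0.13 and -0.12 and TIAR at -0.18 and -0.16 from HuR (adjusted p from 0.24 to 0.45), with 95% intervals no lower than -0.46. The highest arrays of both probes were HuR arrays.

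The fusion GTPases did not pass against HuR. OPA1 was measured at chr3:193414874-193414933 (A_23_P211797), where it ranged from 1.36 to 1.89, and at chr3:193333496-193333555 (A_33_P3346498), where it ranged from -2.39 to -1.62. At the brighter probe the TIAR arrays, at 1.53 and 1.36, lay below those of every other line, and the difference from HuR of -0.32 had an unadjusted p of 0.047 and an adjusted p of 0.11. At the dimmer probe TIA1 was highest, and TIAR was at -0.41 from TIA1 (adjusted p = 0.13). MFN1 (A_23_P80648, chr3:179110836-179110895) was at 0.37 and 0.35 in the HuR line, 0.34 and 0.50 in the TIA1 line, 0.20 and 0.45 in the TIAR line and -0.13 and 0.13 in the GFP line. The HuR, TIA1 and TIAR lines overlapped for MFN1, and the 95% interval was -0.23 to 0.34 for TIA1 and -0.38 to 0.30 for TIAR against HuR.

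MFN2, which also tethers mitochondria to the endoplasmic reticulum, had the widest range of line means among the members, at the probe A_23_P126135 (chr1:12073420-12073479). It read 3.44 and 4.14 in the GFP line, 4.89 and 4.69 in the HuR line, 4.76 and 4.87 in the TIA1 line and 4.42 and 4.57 in the TIAR line. Both GFP arrays lay below the other 6, the HuR and TIA1 arrays overlapped, and the gap between the GFP arrays was larger than any within another line. TIA1 was at 0.03 (95% interval -0.30 to 0.35) and TIAR at -0.30 (-0.64 to 0.05) from HuR. The second MFN2 probe (A_33_P3320277, chr1:12067231-12067290) was dim, between -2.70 and -2.03, with all lines overlapping. The named genes whose probes followed MFN2 A_23_P126135 most closely over the 8 arrays, of 24214 probes searched, were FAM200B (Pearson r = 0.997), SEC31A (0.990) and VPS37B (0.988). These are the highest of many correlations over arrays that share GFP 1, and carry no p-value.

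TFAM was the only member with a probe that passed as higher in TIA1 than in HuR on the processed signals. The difference at MFF A_23_P92994 was larger, at 0.53, but did not pass (adjusted p = 0.071 with limma). The 2 probes are on the plus strand at chr10:60147960-60148019 (A_33_P3389188) and chr10:60155172-60155231 (A_24_P134727). The array also lists the second for the pseudogene TFAMP1, so its signal may come from more than 1 locus. They are shown, the first whole and the second in part, because the first passed in the TIA1 line and the second may share its signal with the pseudogene.
TFAM A_33_P3389188: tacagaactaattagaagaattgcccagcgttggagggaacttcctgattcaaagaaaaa
TFAM A_24_P134727: attatggaagcaggagtttccttttcaaaa
The first read 3.65 and 3.44 in the HuR line, 3.97 and 4.05 in the TIA1 line, 3.62 and 3.81 in the TIAR line and 2.94 and 3.26 in the GFP line. The TIA1 arrays were the highest of the 8 and the GFP arrays the lowest, while the TIAR and HuR arrays overlapped. TIA1 was higher than HuR by 0.46 (SE 0.12, adjusted p = 0.039 with limma), and TIAR was at 0.17 (adjusted p = 0.38). Of all 5 probes that passed for TIA1 versus HuR this one was lost under the most settings, with adjusted p-values of 0.11 without HuR 1, 0.22 without HuR 2, 0.061 without TIA1 1, 0.099 without TIA1 2 and 0.066 with the replicate number as a block.

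The second TFAM probe ranged from -3.37 to -2.64. TIA1 was at 0.16 and TIAR at -0.13 from HuR at this probe, and neither passed. With normexp background correction TIA1 was at 0.50 from HuR and passed (adjusted p = 0.017), near the difference at the first probe. The within-array distance between the TFAM probes was -5.77 on average in the GFP line and -6.61 to -6.92 in the others, with an unadjusted p of 0.020 and an adjusted p of 0.14. Over the 8 such probe pairs of the members 0 passed, compared with 3.08% of 7697 pairs on the array, and 3 had an unadjusted p under 0.05 (limma). How many of all 7697 pairs had such an unadjusted p was not counted. PPARGC1A had 1 probe (A_23_P18447, chr4:23793937-23793996), which was dim. It read -3.03 and -2.19 in the GFP line and between -2.69 and -2.19 in the others, and differed from HuR by 0.16 in the TIA1 line and 0.08 in the TIAR line, within the spread between arrays.

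**Figure D3:**
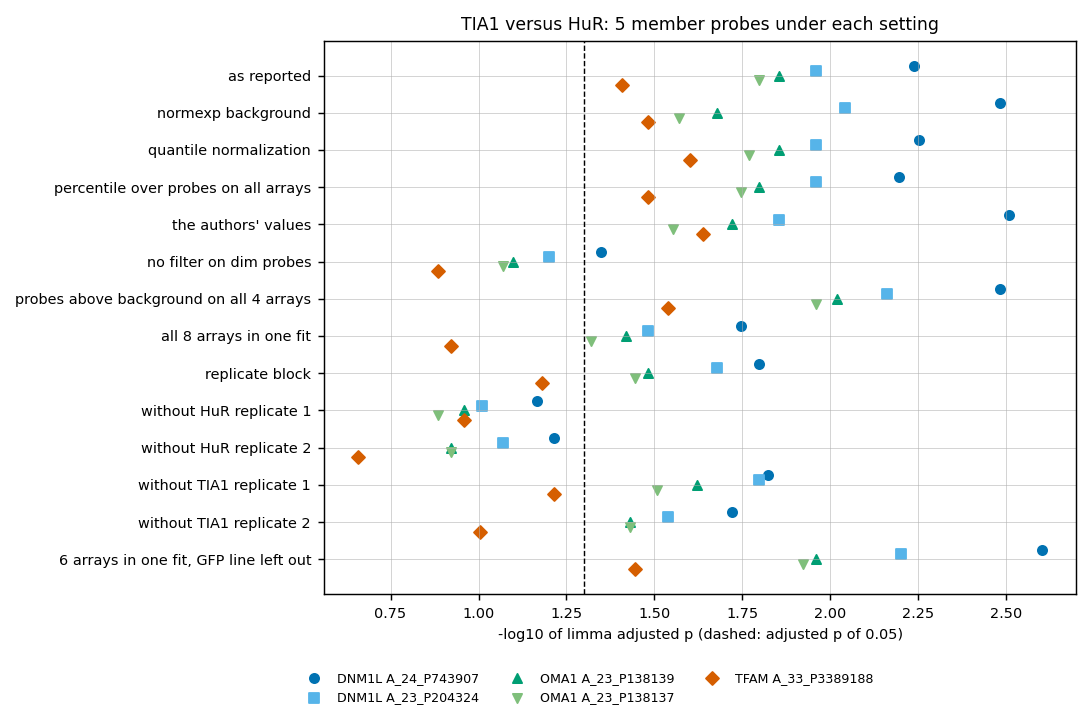
The 5 probes that passed for TIA1 versus HuR under each way of processing the arrays (rows), plotted as -log10 of limma's adjusted p, with the dashed line at an adjusted p of 0.05. All points lie left of the line without either HuR array, and TFAM A_33_P3389188 also does so without either TIA1 array, without the filter on dim probes, with all arrays in one fit and with the replicate block.

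Against the GFP line, 0 of the 18 probes passed in any line, and so did 0 of all probes tested with limma: 0% were called at 2-fold, and 0% were higher and 0% lower at the adjusted p alone, in each of the HuR, TIA1 and TIAR lines. The members with an unadjusted limma p under 0.05 numbered 1, 6 and 0 of the 18 for HuR, TIA1 and TIAR. All probes with one numbered 4870, 5975 and 4592, which was 16.9%, 21.3% and 16.1% of those tested. The arrays did not overlap for 9, 13 and 12 of the 18 members, compared with 57.2%, 57.4% and 53% of all probes. The intervals were wide, lying within 2-fold for 13, 5 and 13 of the 18.

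The largest of these differences were at MFN2 A_23_P126135, at 1.00 for HuR, 1.03 for TIA1 and 0.70 for TIAR over GFP (adjusted p = 0.27, 0.19 and 0.37). Without GFP 1 they were 0.65, 0.68 and 0.36, and without GFP 2, which leaves the array that stood apart, 1.35, 1.37 and 1.05. The difference of the MFN2 probe from the GFP line was positive in each case, and its size changed with the GFP array that was kept. TFAM A_33_P3389188 was at 0.90 in the TIA1 line (adjusted p = 0.15), at 0.74 without GFP 1 and at 1.06 without GFP 2. DNM1L A_24_P743907 was at 0.39 in the HuR line and -0.45 in the TIA1 line relative to GFP (adjusted p = 0.40 and 0.33). These were 0.22 and -0.63 without GFP 1 and 0.57 and -0.28 without GFP 2. The OMA1 probes were at -0.13 and -0.07 in the HuR line and at -0.65 and -0.62 in the TIA1 line (adjusted p = 0.20 for both in TIA1). Without GFP 1 the TIA1 values were -0.76 and -0.70. The OMA1 values in the HuR line were -0.24 and -0.15 without GFP 1 and -0.03 and 0.01 without GFP 2. With either GFP array left out a single array stands for the GFP line, so only the differences are given here for those fits.

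Between the TIA lines 0 of the 18 probes passed, and 2 had an unadjusted p under 0.05 with limma, which 23.7% of all probes had. The 2 were FIS1 and the dimmer OPA1 probe, both with lower values in TIAR. Of all 28063 probes tested 2.35% were called at 2-fold, and 1.74% were higher and 1.74% lower at the adjusted p alone. The arrays did not overlap for 10 of the 18, compared with 55.9% of all probes. All 18 intervals lay within 2-fold, and the widest reached from -0.66 to 0.49, at PPARGC1A.

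The wider pathway was followed through 92 other genes in 4 lists, each at its brightest tested probe. The lists held partners of fission and fusion (21 genes), inner membrane proteases, prohibitins and cristae proteins (22), regulators of biogenesis and mitochondrial DNA maintenance (33) and genes of mitophagy and mitochondrial transport (17), PHB2 being in 2 of them. In TIA1- versus HuR-expressing cells 14 of the 91 genes tested were higher and 17 lower at the adjusted p, of which 5 and 3 were called at 2-fold. Of all probes 24.4% were higher, 17% lower and 13.4% called. In TIAR- versus HuR-expressing cells 13 of 92 were higher and 23 lower, of which 2 and 2 were called, beside 18.3%, 12.2% and 10.1% of all probes. The median over the lists was -0.10 for TIA1 and -0.14 for TIAR, against 0.09 and 0.06 over all probes tested. The lists take the brightest tested probe of each gene and the latter medians every tested probe, so the sets are unlike. With quantile normalization the medians over all probes were -0.003 and -0.03.

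The biogenesis list is the largest. In TIA1 versus HuR 8 of its 32 tested genes were higher and 6 lower, shares near the 24.4% and 17% of all probes. In TIAR versus HuR 4 of 33 were higher and 8 lower, beside 18.3% and 12.2% of all probes. TFB1M, a methyltransferase of the mitochondrial ribosome (chr6:155581446-155581505), read 1.20 and 1.22 in the HuR line, -0.10 and 0.05 in the TIA1 line, -0.20 and -0.04 in the TIAR line and 0.61 and 1.14 in the GFP line. It was below all other arrays in both TIA lines, by 1.23 for TIA1 and 1.33 for TIAR relative to HuR (adjusted p = 0.0038 and 0.0058). GABPA, the DNA-binding subunit of the nuclear respiratory factor GABP (chr21:27144188-27144247), read 0.81 and 0.86 in the HuR line, 2.56 and 2.29 in the TIA1 line, 1.67 and 1.27 in the TIAR line and 1.32 and 1.63 in the GFP line. The TIA1 arrays were the highest and the HuR arrays the lowest, with TIA1 higher than HuR by 1.59 (adjusted p = 0.0035). NRIP1, a corepressor that opposes PGC-1alpha (chr21:16336974-16337033), was at 1.18 and 0.93 in the TIA1 line and at or below -0.09 on every other array, higher than HuR by 1.60 at this probe (adjusted p = 0.0034), with both NRIP1 probes past the test. In TIAR NRIP1 was lower than in TIA1 by 1.35 (adjusted p = 0.046), a call that was lost when any 1 of the 4 arrays was left out (adjusted p from 0.10 to 0.17).

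PRKAA2, a catalytic subunit of the energy sensor AMPK, was lower in TIA1 than in HuR by 1.13 (adjusted p = 0.0050), its GFP signals of -0.64 and -0.41 being nearer those of the TIA lines. MGME1, an exonuclease of mitochondrial DNA, was higher in TIAR than in HuR by 1.34 (adjusted p = 0.0065), reading 2.18 and 2.17 in the HuR line and between 3.24 and 3.69 in the other lines, GFP included. HuR therefore stood alone for MGME1. Among genes named after their values were seen, PPARGC1B and PPRC1, the relatives of PPARGC1A, were lower than HuR in both TIA lines. PPARGC1B was lower by 0.61 in TIA1 and 0.76 in TIAR, at the brighter of its 2 tested probes. PPRC1 was lower by 0.65 and 0.60 (adjusted p from 0.011 to 0.025 over both genes with limma). In the same list MGME1, GABPB1 and TEFM passed as higher than HuR in both TIA lines, GABPB1 by 0.76 and 0.78 and TEFM by 0.88 and 0.52.

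**Figure D4:**
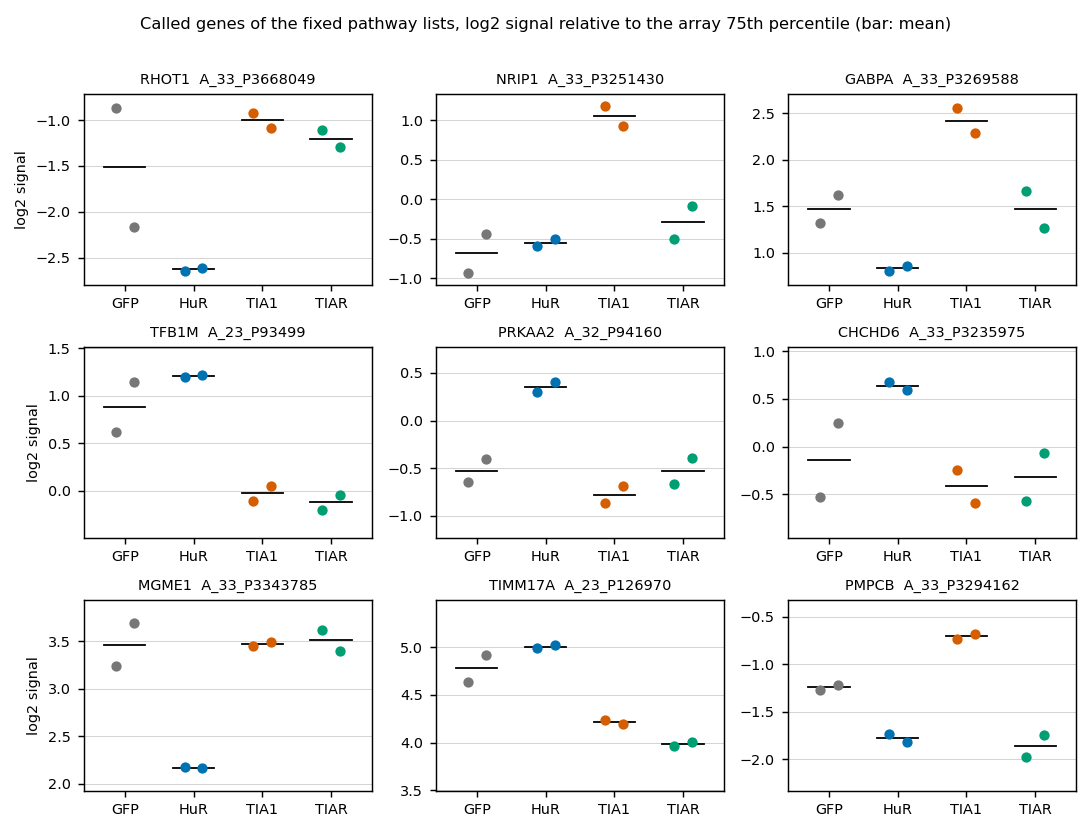
Log2 signal relative to the array's 75th percentile (vertical axis) for 9 genes of the fixed lists with a called difference, 1 point per array and a bar at the mean of the line's 2 arrays. TFB1M is low and RHOT1 high in both TIA lines relative to HuR, and MGME1 is low in the HuR line only.

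Of the 21 partners of fission and fusion 2 were higher and 5 lower than HuR at the adjusted p in each TIA line, with 0 called at 2-fold. Of all probes 24.4% were higher, 17% lower and 13.4% called in TIA1, and 18.3%, 12.2% and 10.1% in TIAR. Seen afterwards, MTFP1, an inner membrane protein that promotes division, was lower by 0.59 in TIA1 and 0.66 in TIAR (adjusted p = 0.012 and 0.014). Of the 22 inner membrane genes 2 were higher in each TIA line, and 4 were lower in TIA1 and 8 in TIAR, beside the same shares of all probes. CHCHD6, a subunit of the cristae-organizing MICOS complex, was lower than HuR by 1.05 in TIA1 (adjusted p = 0.010) and by 0.96 in TIAR (0.032). TIMM17A, a subunit of the inner membrane translocase, read 4.99 and 5.02 in the HuR line, 4.24 and 4.19 in the TIA1 line, 3.97 and 4.01 in the TIAR line and 4.64 and 4.92 in the GFP line, lower in TIAR than in HuR by 1.02 (adjusted p = 0.0069). PMPCB, a subunit of the mitochondrial processing peptidase, was higher in TIA1 than in HuR by 1.06 (adjusted p = 0.0041) and at -0.09 in TIAR (0.64). It was lower in TIAR than in TIA1 by 1.15 (adjusted p = 0.035), and this call too was lost without any 1 of the 4 arrays (0.10 to 0.18).

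Of the 17 genes of mitophagy and transport 2 were higher and 2 lower in TIA1, beside 24.4% and 17% of all probes. In TIAR 5 were higher and 2 lower, beside 18.3% and 12.2%. RHOT1, the GTPase Miro1 that anchors mitochondria to motor proteins (chr17:30536407-30536464), read -2.65 and -2.61 in the HuR line, -0.92 and -1.08 in the TIA1 line and -1.11 and -1.30 in the TIAR line. It was higher than HuR by 1.63 in TIA1 and 1.43 in TIAR (adjusted p = 0.0026 and 0.0057), at 1 of its 2 probes. The GFP arrays disagreed at this probe, with -0.87 on GFP 1 and -2.17 on GFP 2, so that no order relative to the GFP line can be given. Without HuR 1 and without HuR 2 in turn, the adjusted p in TIA1 versus HuR stayed at or below 0.047 for RHOT1, NRIP1, GABPA and TFB1M, and was 0.051 and 0.055 for PRKAA2 and 0.083 and 0.074 for CHCHD6. In TIAR versus HuR it was between 0.064 and 0.081 for RHOT1, TFB1M, MGME1 and TIMM17A. Against the GFP line 0 genes of the lists passed with limma.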

How the data were processed

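RNA of 4 FT293 lines was measured on 8 one-colour arrays, all on 1 slide and scanned 1 time. The authors deposited the output of Agilent Feature Extraction 10.7.3.1. Its processed signal, an intensity, had a fitted background subtracted and was detrended, with no normalization between arrays. The authors also deposited log2 values for the whole series, which were used as an alternative. The submitters' processing notes name limma, and the background correction and normalization are not given in the sources used here. A label protocol names a rat array, but the files and the design text give a human one, and 1 source field of a TIA1 array differs from its title and genotype, which were followed.

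Here the log2 of each processed signal was taken relative to its array's 75th percentile, without outlier spots and averaged over the spots of a probe. Lines were compared with limma 3.58.1 (R 4.3.3) on their 4 arrays, over probes that exceeded background clearly on both arrays of a compared line. Adjusted p-values are Benjamini-Hochberg over all probes tested, and calls need a fold change of 2 and an adjusted p under 0.05. F tests used 8 arrays. The test was checked on simulated data. The number of arrays limits the precision.

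All 18 member probes are described. Genes of the lists are named up to 3 per direction and comparison, by fold change among those called, the others as stated. The members and lists were chosen with earlier results of these data known. The alternatives were normexp background correction (offset 50), quantile normalization, a percentile over probes detected on all arrays, the authors' values, no filter or a stricter one, 8 arrays in one fit, the replicate number as a block, each array left out and, chosen after seeing the data, the GFP line left out. RefSeq matched 17 of the 18 member accessions to the same symbol. Exons and untranslated regions were not assigned. Figures were drawn with matplotlib 3.10.9.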

Additional observations from a re-analysis of the deposited data

How the results depend on the processing

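Over 120 differences of members and named genes, 1429 of 1506 alternative values kept their side of the adjusted p of 0.05, 55 no longer passed and 22 newly passed, the cause of these changes not being tested. Most of the 120 differences had not passed as reported, and these could not be lost. The 1429 is therefore no measure of how stable the passing differences were, on which all 55 losses fell. The sign turned in 106 values of 45 differences, 49 of them against GFP, and in 0 of these had the difference passed before or after. For TIA1 versus HuR 5 member probes passed, beside 11910 of all 28743 probes. On the authors' values 8 passed, beside 11192 of all probes. Without the filter on dim probes, which raises the number tested from 28743 to 50599, 1 passed, beside 4633 of all probes. For TIAR versus HuR 1 passed, beside 8898 of all 29099 probes. With normexp, with probes above background on all compared arrays and with 6 arrays and no GFP line 2 passed. Of all probes 9880 of 29099, 9114 of 26658 and 9434 of 29099 then did. Without the filter and with all 8 arrays in one fit 0 passed, beside 2731 of 50599 and 3459 of 29099 probes. Against GFP 0 were called and 0 passed as reported. All 8 arrays in one fit gave 1 called and 6 passing for TIA1 versus GFP. Of all 28042 probes 2550 were then called and 5196 passed. The F test over the lines passed 1, and 4 with normexp, 3 with quantile normalization, 6 with the percentile over probes on all arrays, 3 on the authors' values, 0 without the filter, 6 with the stricter filter, 4 without the GFP line and 0 to 7 with an array left out. Of all probes the F test passed 20.3% as reported and 41.3% without the GFP line. Its shares of all probes under the other settings were not counted. Whether the member counts there only followed those of all probes therefore cannot be told. Of the members' probe pairs 0 varied, beside 3.08% of all pairs, and 2 varied with normexp, where the share of all pairs was not counted.

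With the replicate number as a block, TIAR versus HuR passed 0 member probes, beside 5889 of all 29099 probes. The F test with this block passed 0 member probes too, and the share of all probes was not counted. Replicates of the same number were not paired, since their deviations correlated between lines from -0.09 to 0.18 over 24959 probes. Over all probes, 3863 were called for TIA1 versus HuR, 2203 with normexp and 1698 on the authors' values, and 64% of calls were higher, 52.9% with quantile normalization. For TIAR versus HuR 2933 were called, 1609 with normexp, 1265 on the authors' values, 1825 with all 8 arrays in one fit, 0 without HuR 1 and 631 without HuR 2, and 70.9% of calls were higher, 56.2% with quantile normalization. For TIAR versus TIA1 659 were called, 272 with normexp, 316 on the authors' values and 0 without the filter and with the replicate block. Against GFP, quantile normalization moved the median of all probes from -0.05 to 0.23 for HuR, 0.01 to 0.24 for TIA1 and -0.02 to 0.21 for TIAR.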
